A study of Saccharomyces cerevisiae with 9 samples.

Results

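Baker's yeast turns glucose into pyruvate by glycolysis, pyruvate into ethanol by fermentation, and a side stream of triose phosphate into glycerol. The 33 genes described here encode these enzymes: the hexokinases through to pyruvate kinase, the pyruvate decarboxylases, the alcohol dehydrogenases ADH1, ADH2, ADH3 and ADH5, the aldehyde dehydrogenases ALD2 to ALD6, and the glycerol genes GPD1, GPD2, GPP1 and GPP2. They were chosen by name for their function, with earlier results of these data known. They make up 33 of the 6629 gene identifiers in the count tables. All 33 identifiers were found in every library. RNA was sequenced from Saccharomyces cerevisiae in exponential growth in SD medium, a defined glucose medium. The strains carried the markers HISDel1, LEU2Del0, MET15Del0 and URA3Del0 and a nourseothricin resistance cassette, NATR. The cassette stood with a TEF promoter before YET3 in the overexpression strain (NATR::TEFpr-YET3), in place of YET3 in the strain labelled as a deletion (DelYET3::NATR), and at HO in the control (HO::NATR). YET3 encodes a membrane protein of the endoplasmic reticulum, and the series concerns its part in sterol synthesis. Each strain gave 3 libraries, named as repeats. No label ties a repeat to its own culture, and the p-values below therefore speak of library-to-library spread, which may be technical.

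Glycolysis is the main source of ATP in yeast growing on glucose, and its enzymes are among the most abundant proteins of the cell. The transcription factors Gcr1 and Rap1 drive most of its genes. Acetaldehyde made by pyruvate decarboxylase is reduced to ethanol by Adh1, which restores NAD, or oxidised to acetate by the aldehyde dehydrogenases, which feeds cytosolic acetyl-CoA, the precursor of sterols and fatty acids. Glucose represses a subset of these genes, of which ADH2 is the textbook case, and the activators Adr1 and Cat8 switch them on when glucose runs out. Glycerol synthesis uses up NADH and makes the compound with which yeast balances osmotic pressure.

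Library totals ran from 223189 to 1634021 counts. YET3, the targeted gene, stood at 2261, 2029 and 1341 CPM (counts scaled by TMM to a common library size) in the overexpression libraries, at 728, 328 and 640 CPM in the libraries labelled YET3 deletion, and at 477, 477 and 479 CPM in the controls. YET3 was higher in every overexpression library than in every control, at 1.97 on the log2 scale (adjusted p = 0.00627, edgeR quasi-likelihood test). Its counts went against the label of the deletion strain, so no direction below can be read as an effect of losing YET3. Of the genes deleted by the markers, MET17 (MET15) had 0 counts in every library, URA3 at most 2 and LEU2 at most 3, while HIS3, of which the marker removes a part, had 54 to 356. HO, interrupted in the control, stood at 5.01, 6.30 and 0 CPM in overexpression and 2.96, 7.59 and 0 CPM in the libraries labelled deletion, against 45.0, 28.2 and 57.1 CPM in the controls. On the leading principal component, with 47.6% of the variance, 3 libraries (overexpression 3, deletion 1 and deletion 3) stood at 27.7 to 38.9 and the other 6 at -25.7 to -10.6. In those 3, the rows of YLR154W took between 0.111% and 0.267% of counts, against 0.817% to 2.42% in the other 6. No label names a batch, and a part of these 3 libraries in the results was not tested except where values with and without them are given. In these bulk samples, fewer cells of a type and less RNA per cell cannot be told apart.

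The 33 genes showed no change that passed the test in any of the 3 comparisons. Of the 33, 30 had enough counts to be tested, and ADH2, PDC5 and PDC6 did not. With edgeR's quasi-likelihood test and an adjusted p threshold of 0.05 over all 5090 genes tested, 0 of 30 passed in overexpression against control, where 0.629% of all genes passed as higher and 0.216% as lower, 0.845% in all. In the libraries labelled deletion against control, 0 of 30 passed, beside 0% of all genes as higher and 0.0196% as lower. In overexpression against the libraries labelled deletion, 0 of 30 passed, beside 0.668% of all genes as higher and 0.0589% as lower, 0.727% in all. Without adjustment, 2, 3 and 1 of the 30 had p under 0.05 in these 3 comparisons, which is 6.67%, 10% and 3.33% of them, beside 7.11%, 11.9% and 6.76% of all genes. DESeq2 called 0 of 30 in each comparison too, with 2, 3 and 0 under an unadjusted p of 0.05. The median log2 fold change of the 30 genes was -9.05e-05 in overexpression against control, -0.02 in the libraries labelled deletion against control and -0.01 in overexpression against the libraries labelled deletion.

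The intervals around these fold changes set a limit on what could have been missed. In overexpression against control, the 95% interval of the log2 fold change lay wholly between -1 and 1 for 23 of the 30 genes, so that a change of 2-fold or more lay outside it. The same held for 53.6% of all genes tested. For the libraries labelled deletion against control it held for 19 of 30 genes and 49.2% of all genes, and for overexpression against the libraries labelled deletion for 26 of 30 and 56.0%. Both comparisons with control use the same 3 control libraries.

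**Figure D1:**
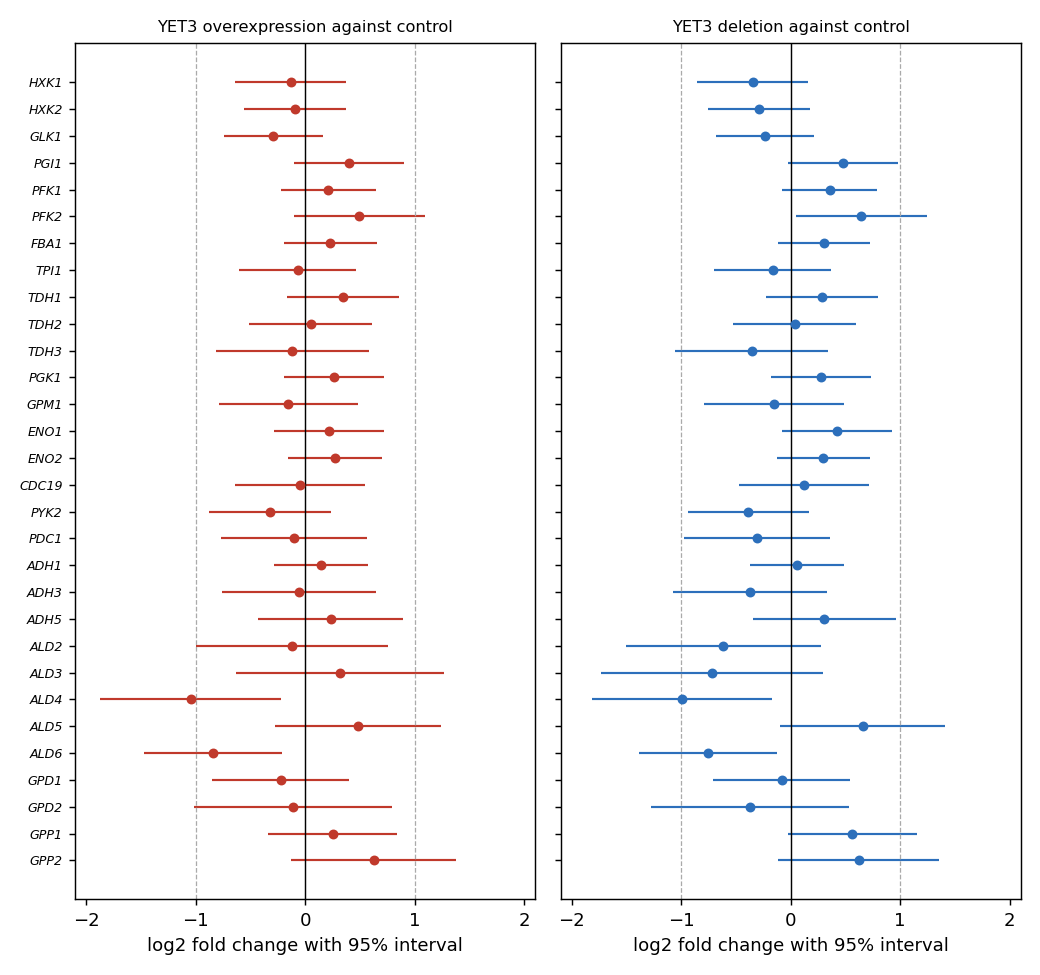
Log2 fold change (x axis) of each of the 30 tested genes (y axis) with its 95% interval from the edgeR fit, for overexpression against control on the left and the libraries labelled YET3 deletion against control on the right; dashed lines mark a log2 fold change of -1 and 1. The intervals of ALD4 and ALD6 lie below 0 in both panels and that of PFK2 lies above 0 on the right, and 0 of the 30 genes passed the adjusted threshold in either panel.

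Together the 33 genes took 11.7%, 10.5% and 8.26% of all counts in the overexpression libraries, 8.13%, 10.8% and 10.9% in the libraries labelled deletion, and 10.2%, 9.82% and 11.0% in the controls. The groups overlapped, and the means were 10.2% ± 1.74, 9.92% ± 1.55 and 10.3% ± 0.62 (SD, n = 3 each). Lower glycolysis held the largest part, at 5.37% ± 1.07 of counts in overexpression, 5.26% ± 1.1 in the libraries labelled deletion and 5.49% ± 0.43 in control. The aldehyde dehydrogenases were the role whose share in overexpression did not reach that in control. They took 0.143%, 0.126% and 0.119% of counts in the overexpression libraries and 0.124%, 0.187% and 0.102% in the libraries labelled deletion, against 0.220%, 0.210% and 0.20% in the controls.

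Levels differed widely among the genes. Set on a scale of CPM per kilobase of coding sequence, which assumes that reads were counted over the whole coding region, TDH3 stood highest in control at 18772 ± 2490.1, above GPM1 at 11246 ± 1054 and FBA1 at 10612 ± 497. ADH1 at 8512 ± 432, PDC1 at 7780.1 ± 474 and TDH2 at 7081 ± 614 CPM per kilobase followed, and their ranges over the 3 control libraries overlapped. At the low end of the control libraries stood ALD3 at 18.5 ± 3.11, ADH2 at 14.8 ± 1.79, PDC5 at 9.15 ± 5.65 and PDC6 at 2.21 ± 3.13 CPM per kilobase, again with overlapping ranges. Between neighbours in this order, the ranges were separate in 8 of 32 steps in overexpression, 4 of 32 in the libraries labelled deletion and 15 of 32 in control. TDH3 led and PDC6 came last in all 3 strains.

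**Figure D2:**
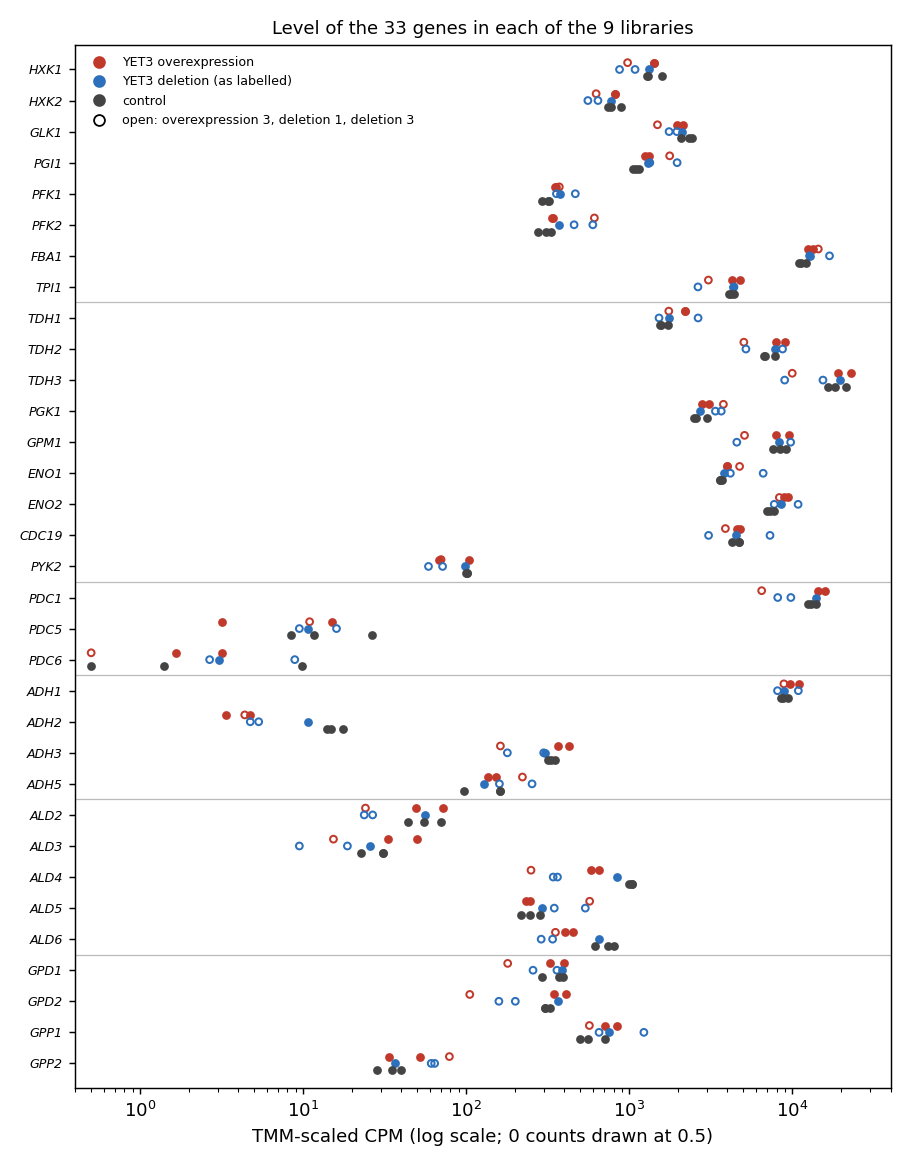
Level of each of the 33 genes (y axis, by role) in each library (x axis, TMM-scaled CPM on a log scale, with 0 counts drawn at 0.5); points are libraries of overexpression, labelled deletion and control, and open points mark overexpression 3, deletion 1 and deletion 3. The highest gene, TDH3, reaches 22752 CPM, and ALD4, ALD6 and ADH2 lie to the left of control in all 3 overexpression libraries.

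Several genes lay wholly above or wholly below the controls without passing the test. In overexpression, 7 of the 30 genes were higher in every library than in every control (23.3%, beside 8.51% of all genes), and 2 were lower (6.67%, beside 8.47%). The 7 were PGI1, PFK1, PFK2, FBA1, TDH1, ENO1 and ENO2, all of them glycolytic, and the 2 were ALD4 and ALD6. In the libraries labelled deletion, 6 genes were higher than every control (20%, beside 9.41%), namely PGI1, PFK1, PFK2, FBA1, ENO1 and ALD5. There, 3 genes were lower (10%, beside 10%), namely ALD4, PYK2 and ADH3. Between overexpression and the libraries labelled deletion, 0 genes were separate in either direction, beside 5.3% of all genes higher and 4.18% lower.

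In upper glycolysis, which takes glucose to the triose phosphates, 4 of the 8 genes (PGI1, PFK1, PFK2 and FBA1) lay above every control in both strains, and the hexose kinases and TPI1 overlapped with control. Of all genes, 8.51% lay above every control in overexpression and 9.41% in the libraries labelled deletion. Both strains were set against the same 3 controls, and the share of all genes above them in both strains was not computed. PGI1 (YBR196C, chrII:612236-613900), phosphoglucose isomerase, had 1248, 1326 and 1768 CPM in overexpression and 1336, 1296 and 1964 CPM in the libraries labelled deletion, against 1105, 1139 and 1046 CPM in control. Every library of both strains exceeded every control. The log2 fold change of PGI1 was 0.40 in overexpression (SE 0.23, adjusted p = 0.746, edgeR) and 0.48 in the libraries labelled deletion (SE 0.23, adjusted p = 0.416). PFK2 (YMR205C, chrXIII:671887-674766), the beta subunit of phosphofructokinase, had 337, 342 and 610.5 CPM in overexpression and 597, 372 and 458 CPM in the libraries labelled deletion, against 276, 329.7 and 308 CPM in control. Its highest values came from overexpression 3 and deletion 1. The log2 fold change of PFK2 was 0.49 in overexpression (SE 0.28, adjusted p = 0.746) and 0.65 in the libraries labelled deletion (SE 0.28, adjusted p = 0.40). Without the 3 libraries that lay apart these values were 0.15 and 0.29.

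PFK1 (YGR240C, chrVII:970771-973734), the alpha subunit, had 355, 349.9 and 372 CPM in overexpression and 357, 373 and 466 CPM in the libraries labelled deletion, against 291, 324 and 317 CPM in control. Its narrow spread left a log2 fold change of 0.21 in overexpression and 0.36 in the libraries labelled deletion (SE 0.20, adjusted p = 0.435, edgeR). FBA1 (YKL060C, chrXI:326408-327487), aldolase, averaged 13450.1 ± 974 CPM in overexpression and 14163 ± 2370.4 CPM in the libraries labelled deletion, against 11461 ± 537 CPM in control (SD, n = 3 each). The log2 fold change of FBA1 was 0.23 in overexpression and 0.31 in the libraries labelled deletion (SE 0.20, adjusted p = 0.468). TPI1 (YDR050C, chrIV:555726-556472), triose phosphate isomerase, overlapped with control in both strains and ranged from 2636 CPM in deletion 1 to 4806 CPM in overexpression 1.

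The 3 kinases that phosphorylate glucose had negative log2 fold changes in both strains over all 9 libraries. GLK1 (YCL040W, chrIII:50838-52340), glucokinase, had 2138, 1948 and 1488 CPM in overexpression and 1754, 2095 and 1956 CPM in the libraries labelled deletion, against 2412, 2073 and 2339 CPM in control. Each strain overlapped with the lowest control, and the log2 fold change was -0.29 in overexpression (SE 0.21, adjusted p = 0.783, edgeR). HXK1 and HXK2, the hexokinases, had log2 fold changes of -0.13 and -0.09 in overexpression and -0.35 and -0.29 in the libraries labelled deletion, with ranges that overlapped with control. Without the 3 libraries that lay apart, the values of HXK1 and HXK2 in overexpression turned to 0.0244 and 0.0225. In the libraries labelled deletion, with deletion 2 alone left, they were -0.0702 and -0.0568. GLK1 is the 1 gene of the 33 whose annotated span overlaps another annotated gene, YCL042W, and reads from the overlap cannot be assigned with the information at hand.

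Lower glycolysis takes triose phosphate to pyruvate and held the most abundant transcript, TDH3. TDH3 and TDH2 encode the main forms of glyceraldehyde phosphate dehydrogenase and TDH1 a minor form. TDH1 (YJL052W, chrX:338271-339269) had 2189.6, 2208 and 1746 CPM in overexpression and 1521, 1752 and 2641 CPM in the libraries labelled deletion, against 1562, 1722 and 1547 CPM in control. The overexpression libraries lay just above the highest control, with a log2 difference of 0.35 (SE 0.24, adjusted p = 0.770, edgeR). Without the 3 libraries that lay apart it was 0.45 with an adjusted p of 0.0528. TDH3 (YGR192C, chrVII:882812-883810) had 22752, 19115 and 9984 CPM in overexpression and 8971, 19589 and 15413 CPM in the libraries labelled deletion, against 18316, 16513 and 21430.2 CPM in control. Its 3 lowest values were those of the 3 libraries that lay apart. The rows of this trio must be read with care, since TDH2 and TDH3 share 95.8% of their coding bases, with an identical run of 173 bases, and TDH1 shares 90.2% with TDH2 and 88.9% with TDH3. The last 60 coding bases of each gene, read from the RefSeq genome of build R64, show whether a read inside them can be assigned. Reads from the message beyond the stop codon are not covered. The bases are given on the coding strand with the 7 positions that differ within the trio in capitals (TDH1 at chrX:339210-339269, plus strand, TDH2 at chrX:453683-453742 and TDH3 at chrVII:882812-882871, minus strand).
TDH1: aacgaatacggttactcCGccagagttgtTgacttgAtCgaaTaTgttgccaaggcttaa
TDH2: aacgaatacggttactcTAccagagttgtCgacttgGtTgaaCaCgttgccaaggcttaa
TDH3: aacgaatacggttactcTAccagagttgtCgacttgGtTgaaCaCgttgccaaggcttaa
Over these 60 bases TDH2 and TDH3 differ at 0 positions, so a read inside them fits both genes, while TDH1 stands apart from both.

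ENO1 and ENO2, the enolases, share 94.8% of their coding bases, with an identical run of 112 bases, so their split is uncertain as well. ENO2 (YHR174W, chrVIII:451327-452640) had 9396, 8873 and 8325 CPM in overexpression, against 6999, 7288 and 7754 CPM in control, with no overlap and a log2 fold change of 0.27 (SE 0.20, adjusted p = 0.785, edgeR). ENO1 (YGR254W, chrVII:1000927-1002240) had 3965, 3986 and 4746 CPM in overexpression and 4166, 3806 and 6622 CPM in the libraries labelled deletion, against 3587, 3622 and 3684 CPM in control. The controls agreed within a narrow range, and the log2 fold change of ENO1 in the libraries labelled deletion was 0.42 (SE 0.23, adjusted p = 0.435). PGK1 (YCR012W, chrIII:137746-138996), phosphoglycerate kinase, averaged 3217 ± 501 CPM in overexpression and 2678 ± 261 CPM in control (SD, n = 3 each), with overlapping ranges. This was a difference of 0.26 on the log2 scale (SE 0.21, adjusted p = 0.807). GPM1 (YKL152C, chrXI:163642-164385), phosphoglycerate mutase, and TDH2 overlapped with control in both strains, with log2 fold changes of -0.15 and 0.05 in overexpression.

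Pyruvate kinase makes the pyruvate. CDC19 (YAL038W, chrI:71786-73288), the main pyruvate kinase, had 4749.6, 4584 and 3884 CPM in overexpression and 3062, 4527 and 7293 CPM in the libraries labelled deletion, against 4254, 4738 and 4682 CPM in control. Deletion 1 gave its lowest and deletion 3 its highest value of all 9 libraries. PYK2 (YOR347C, chrXV:984942-986462), a minor pyruvate kinase that glucose represses, had 71.6, 98.6 and 58.6 CPM in the libraries labelled deletion, against 99.9, 101 and 101 CPM in control. The groups were separate by a small margin.

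Pyruvate decarboxylase splits pyruvate into acetaldehyde and carbon dioxide, and PDC1 carried nearly all of its message. PDC1 (YLR044C, chrXII:232390-234081) had 15842, 14413 and 6483 CPM in overexpression and 8134, 14010.4 and 9790.3 CPM in the libraries labelled deletion, against 12996, 12459 and 14036 CPM in control. The 3 libraries that lay apart gave the 3 lowest values, and the log2 fold changes of -0.10 and -0.31 against control did not pass the test. PDC5 (YLR134W, chrXII:410723-412414), the form that takes over when PDC1 is lost, had 16 counts in all in overexpression, 29 in the libraries labelled deletion and 31 in control. PDC6 (YGR087C, chrVII:651290-652981), induced when sulfur is short, had 3, 18 and 17. Of the 3 counts of PDC6 in overexpression, against 17 in control, the ratio per library total was 0.259 with a 95% counting interval of 0.0487 to 0.897. This interval covers counting error only, and in control 16 of the 17 counts came from 1 library. Both rows can receive reads from PDC1, which shares 87.2% of its coding bases with PDC5 and 75.0% with PDC6.

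Alcohol dehydrogenase joins acetaldehyde and ethanol. ADH1 (YOL086C, chrXV:159548-160594), which makes ethanol, was among the steadiest genes, with 9868 ± 1092 CPM in overexpression, 9275 ± 1436 CPM in the libraries labelled deletion and 8912 ± 453 CPM in control (SD, n = 3 each). ADH1 had a log2 fold change of 0.15 in overexpression with a 95% interval of -0.28 to 0.58. The mitochondrial ADH3 (YMR083W, chrXIII:434788-435915) had 427, 367 and 162 CPM in overexpression and 179, 302 and 298 CPM in the libraries labelled deletion, against 349, 332 and 317 CPM in control. ADH5 ranged from 96.7 to 253 CPM over the 9 libraries, and its groups overlapped.

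ADH2 (YMR303C, chrXIII:873291-874337), which oxidises ethanol back to acetaldehyde and is repressed by glucose, was near its floor in every library and lower in both strains than in control. It had 2, 3 and 2 counts in the overexpression libraries and 8, 7 and 2 in the libraries labelled deletion, against 10, 24 and 4 in the controls. Scaled to library size, these were 3.34, 4.73 and 4.38 CPM in overexpression and 4.73, 10.6 and 5.33 CPM in the libraries labelled deletion, against 14.1, 14.7 and 17.6 CPM in control. All 6 values lay below the 3 controls. Summed over libraries, the ratio of counts per library total was 0.271 in overexpression against control, with a 95% counting interval of 0.102 to 0.614, and 0.422 in the libraries labelled deletion, with an interval of 0.223 to 0.766. Leaving out any 1 library kept the ratio in overexpression between 0.248 and 0.300. In the libraries labelled deletion the ratio was 0.713 when the 3 libraries that lay apart were left out, which leaves deletion 2 alone. ADH2 was under the filter on low counts. Without the filter its log2 fold change was -1.82 in overexpression (SE 0.55, unadjusted p = 0.00422, adjusted p = 0.276, edgeR) and -1.18 in the libraries labelled deletion (SE 0.47, adjusted p = 0.412), so neither passed. ADH2 shares 88.8% of its coding bases with ADH1, and made 0.0420% ± 0.0105 of the cytosolic alcohol dehydrogenase counts per coding length in overexpression and 0.0745% ± 0.0383 in the libraries labelled deletion, against 0.170% ± 0.0140 in control (SD, n = 3 each). ADH1 reads placed on ADH2 would add to its row.

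The aldehyde dehydrogenases oxidise acetaldehyde to acetate, and 2 of them, ALD4 and ALD6, had the smallest p-values of the 30 genes in both comparisons with control. ALD6 (YPL061W, chrXVI:432588-434090), the main cytosolic form, had 452, 400.4 and 352 CPM in overexpression and 288, 654 and 338 CPM in the libraries labelled deletion, against 805, 739 and 615 CPM in control. All overexpression libraries lay below all controls, while deletion 2 overlapped with the lowest control. Its log2 fold change was -0.84 in overexpression (SE 0.29, adjusted p = 0.455, edgeR) and -0.76 in the libraries labelled deletion (SE 0.29, adjusted p = 0.40). ALD4 (YOR374W, chrXV:1039840-1041399), the main mitochondrial form, had 649, 580.0 and 249 CPM in overexpression and 341, 836 and 362 CPM in the libraries labelled deletion, against 1034, 994 and 1033 CPM in control. All 6 values lay below the controls. The log2 fold change of ALD4 was -1.05 in overexpression (SE 0.38, adjusted p = 0.519) and -0.99 in the libraries labelled deletion (SE 0.38, adjusted p = 0.40).

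The call for ALD4 and ALD6 in overexpression turned on the 3 libraries that lay apart. Without them, which leaves 2 overexpression libraries and 3 controls, 2 of 32 tested genes passed, both as lower, beside 1.71% of all genes as higher and 1.44% as lower, 3.15% in all. They were ALD4 with a log2 fold change of -0.73 (SE 0.14, adjusted p = 0.00136, edgeR) and ALD6 with -0.77 (SE 0.15, adjusted p = 0.00161). With a term in the fit for those 3 libraries, 1 of 30 passed, as lower, beside 1.41% of all genes as higher and 0.806% as lower, 2.22% in all. It was ALD4 with -0.74 (adjusted p = 0.0118), and ALD6 had -0.63 (adjusted p = 0.131). Over 18 alternative settings the adjusted p of ALD4 ran from 0.00136 to 0.992 and that of ALD6 from 0.00161 to 0.992, with a negative log2 fold change in all of them. In the libraries labelled deletion, deletion 2 was the sole library left when the 3 were taken out and was given the spread estimated from the rest. The log2 fold changes against control were then -0.28 for ALD4 (adjusted p = 0.975) and -0.15 for ALD6 (adjusted p = 0.997), and 0 of 32 genes passed, beside 0% of all genes as higher and 0.095% as lower. With the term, 0 of 30 passed there, beside 0% and 0.0196%. For overexpression against the libraries labelled deletion, 0 of 32 genes passed without the 3 libraries, beside 1.12% of all genes as higher and 0.323% as lower, 1.44% in all. With the term, 0 of 30 passed, beside 1.75% and 0.334%, 2.08% in all.

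The other aldehyde dehydrogenases overlapped with control in overexpression. ALD5 (YER073W, chrV:304030-305592), a minor mitochondrial form, had 245, 232 and 571 CPM in overexpression and 537, 291 and 346 CPM in the libraries labelled deletion, against 245, 281 and 215 CPM in control. Overexpression 3 and deletion 1 stood highest, and the other overexpression libraries lay within the range of control. Its log2 fold change was 0.48 in overexpression (SE 0.35, adjusted p = 0.785, edgeR) and 0.66 in the libraries labelled deletion (SE 0.35, adjusted p = 0.432). The sign in overexpression turned to -0.07 without overexpression 3. The neighbouring stress-induced genes ALD2 and ALD3, at chrXIII:601562-603082 and chrXIII:599352-600872 on the minus strand, were low. ALD3 had 50.1, 33.1 and 15.3 CPM in overexpression and 9.46, 25.8 and 18.7 CPM in the libraries labelled deletion, against 31.0, 22.7 and 30.8 CPM in control. ALD2 had 71.8, 48.9 and 24.1 CPM in overexpression and 23.7, 56.1 and 26.6 CPM in the libraries labelled deletion, against 54.9, 44.1 and 70.3 CPM in control. In overexpression against control the log2 fold changes were -0.12 for ALD2 and 0.32 for ALD3. They were -0.62 for ALD2 and -0.72 for ALD3 in the libraries labelled deletion, near the -0.76 of ALD6, with adjusted p of 0.486 and 0.474 (edgeR). Without the 3 libraries that lay apart, which were lowest for both genes, these values were 0.14 and -0.0145. ALD2 and ALD3 share 91.8% of their coding bases with an identical run of 329 bases, so the split between them is uncertain.

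**Figure D3:**
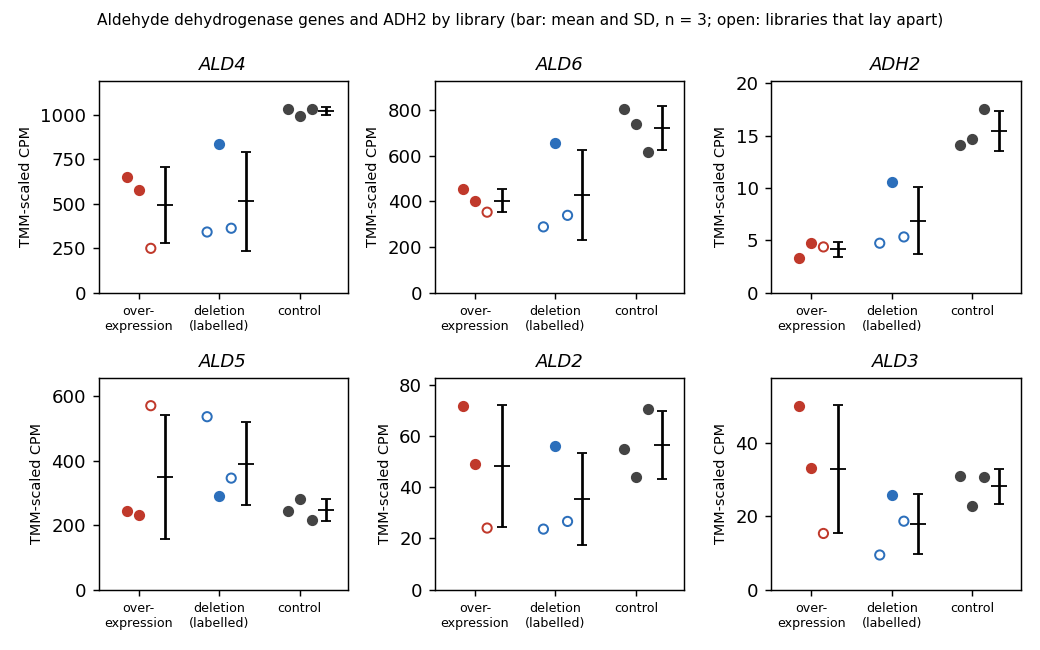
TMM-scaled CPM (y axis) of ALD4, ALD6, ADH2, ALD5, ALD2 and ALD3 in each library of overexpression, labelled deletion and control (x axis); bars give the mean and SD (n = 3) and open points mark the 3 libraries that lay apart. ALD4 and ADH2 lie below control in all 6 libraries of both strains, and ALD6 in all 3 overexpression libraries, at 352 to 452 CPM against 615 to 805 CPM.

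ADH2, ALD4 and ALD6 lay below every control in all 3 overexpression libraries, and the stretch before each is shown for the letters TTGGAG, which the activator Adr1 is known to bind. The search for this motif was added after the values had been seen. The sequences run from 300 to 101 bases before the start codon, in the direction of the gene, from the RefSeq genome of build R64, with TTGGAG on either strand in capitals (ADH2 at chrXIII:874438-874637, minus strand; ALD4 at chrXV:1039540-1039739, plus strand; ALD6 at chrXVI:432288-432487, plus strand).
ADH2: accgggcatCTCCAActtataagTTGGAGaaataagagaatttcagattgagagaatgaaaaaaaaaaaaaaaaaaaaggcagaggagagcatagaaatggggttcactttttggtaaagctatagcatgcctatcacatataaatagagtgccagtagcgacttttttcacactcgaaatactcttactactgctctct
ALD4: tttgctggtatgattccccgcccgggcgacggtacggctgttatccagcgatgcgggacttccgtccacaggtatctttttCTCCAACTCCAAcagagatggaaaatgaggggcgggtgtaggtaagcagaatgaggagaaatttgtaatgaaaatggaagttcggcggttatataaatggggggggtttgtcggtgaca
ALD6: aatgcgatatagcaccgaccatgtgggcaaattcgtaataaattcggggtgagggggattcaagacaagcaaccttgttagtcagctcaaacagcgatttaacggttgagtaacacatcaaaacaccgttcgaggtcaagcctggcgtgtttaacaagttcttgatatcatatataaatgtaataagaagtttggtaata
In ADH2 the letters begin 291 and 277 bases before the start codon, on opposite strands. In ALD4 a pair of adjoining copies begins at 219 and 213 bases, and ALD6 holds none in its 300 bases. Of the 33 genes, ADH2 and ALD4 alone hold TTGGAG within 300 bases before the start codon (6.06%), beside 10.4% of 6001 promoters of that length. A match is a description of the letters, not of a bound site.

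Other motifs of glycolytic and stress control were counted over the same 300 bases on both strands. CTTCC, the core bound by Gcr1, stood before 18 of the 33 genes (54.5%), beside 45.5% of all promoters. CACCC, a core of the Rap1 site, stood before 7 (21.2%), beside 19.6%. AGGGG, the stress element bound by Msn2 and Msn4, stood before 15 (45.5%), beside 22.2%. CACGTG, the E-box, stood before 3 (9.09%), namely TDH1, PYK2 and GPP2, beside 3.57%.

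The glycerol genes held to the level of control or scattered about it. GPD1 and GPD2 encode the glycerol phosphate dehydrogenases, of which Gpd1 answers osmotic stress and Gpd2 lack of oxygen. GPD2 (YOL059W, chrXV:217126-218448) had 411, 347 and 105 CPM in overexpression and 158, 366 and 199.9 CPM in the libraries labelled deletion, against 328, 305 and 303 CPM in control. The 3 libraries that lay apart were the lowest, and the other 3 of these strains stood above every control. GPD1 ranged from 179 CPM in overexpression 3 to 396 CPM in overexpression 1, and its groups overlapped. GPP1 and GPP2, the phosphatases that release glycerol, had positive log2 fold changes. GPP1 (YIL053W, chrIX:255115-255867) had 839, 706 and 569 CPM in overexpression and 652, 752 and 1228 CPM in the libraries labelled deletion, against 557, 709 and 501 CPM in control. Its log2 fold change in the libraries labelled deletion was 0.56 (SE 0.27, adjusted p = 0.416, edgeR), with ranges that overlapped. GPP2 (YER062C, chrV:279930-280682) had 33.4, 52.0 and 78.8 CPM in overexpression and 60.9, 36.4 and 63.95 CPM in the libraries labelled deletion, against 28.1, 39.8 and 35.2 CPM in control. Its log2 fold change was 0.62 in both comparisons (SE 0.35 in overexpression and 0.34 in the libraries labelled deletion; adjusted p = 0.746 and 0.435).

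Families of related genes differed in how far their split moved between libraries. Shares below are of family counts per coding length, and with no test they describe the libraries. HXK1 made 62.6% ± 1.43 of the hexokinase pair in overexpression, 62.3% ± 4.32 in the libraries labelled deletion and 63.3% ± 4.43 in control. CDC19 made 97.7% to 99.2% of the pyruvate kinase pair over the 9 libraries. PFK2 made 49.4%, 50.2% and 62.8% of the phosphofructokinase pair in overexpression and 63.2%, 50.6% and 50.3% in the libraries labelled deletion, against 49.4%, 51.2% and 50.01% in control. Overexpression 3 and deletion 1 departed from an even split of the subunits, and the other 7 libraries lay between 49.4% and 51.2%. The largest shift was in the mitochondrial aldehyde dehydrogenases. ALD5 made 27.4%, 28.5% and 69.6% of the ALD4 and ALD5 pair in overexpression and 61.1%, 25.8% and 48.8% in the libraries labelled deletion, against 19.1%, 22.02% and 17.2% in control. Every library of both strains lay above every control, and the 3 libraries that lay apart were the highest.

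GPD2 made 48.0%, 48.6% and 34.2% of its pair in overexpression and 35.4%, 45.8% and 33.1% in the libraries labelled deletion, against 42.8%, 42.2% and 48.2% in control. Its 3 lowest shares were again those of the libraries that lay apart. ALD3 made 41.1%, 40.4% and 38.9% of the ALD2 and ALD3 pair in overexpression, against 36.1%, 33.9% and 30.4% in control. This shift of a few percent rests on 7 to 37 counts of ALD3 per library. GPP2 made 7.62% ± 4.22 of its pair in overexpression, 6.03% ± 2.18 in the libraries labelled deletion and 5.56% ± 0.90 in control. ENO1 and the TDH genes kept overlapping shares in overexpression and control. In the libraries labelled deletion TDH2 made 33.1%, 26.9% and 32.5% of its trio, against 25.4%, 26.8% and 25.3% in control, with no overlap. The shares of ENO1, TDH1 and TDH3 overlapped with control there too.

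**Figure D4:**
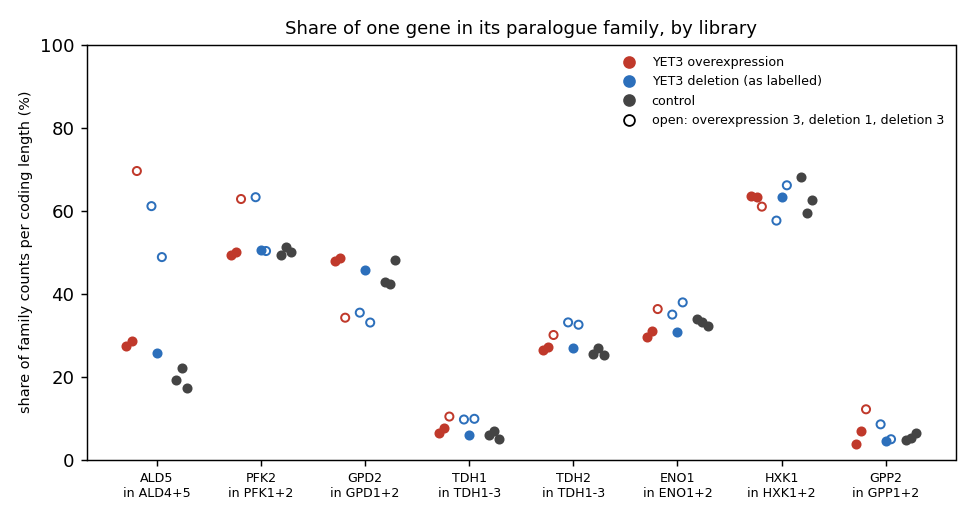
Share of the family's counts per coding length (y axis, percent) held by the named gene in each family (x axis), by library of overexpression, labelled deletion and control; open points mark overexpression 3, deletion 1 and deletion 3. The share of ALD5 runs from 25.8% to 69.6% in both strains against 17.2% to 22.02% in control, and that of HXK1 overlaps among the groups.

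The position of the 3 libraries that lay apart differed between genes. All 3 lay below all other 6 libraries for 10 of the 30 genes (HXK1, HXK2, TDH3, PDC1, ADH3, ALD2, ALD3, ALD4, ALD6 and GPD2), beside 14.7% of all genes. All 3 lay above for 6 (PGI1, PFK2, PGK1, ENO1, ALD5 and GPP2), beside 16.3%, and for 14 genes the ranges overlapped. Several log2 fold changes given above lay nearer 0 without the 3 libraries. In overexpression against control they were then 0.23 for PGI1, 0.13 for PGK1 and 0.27 for GPP2, and that of GLK1 was -0.15. In the libraries labelled deletion, with deletion 2 alone left, they were 0.24 for PGI1, 0.17 for FBA1, 0.0717 for ENO1, 0.20 for ALD5, 0.33 for GPP1 and 0.0346 for GPP2. The libraries were set apart by values of all genes, these 30 included, so the counts describe them and carry no test. Among the 6 remaining libraries, ALD4, ALD6 and ADH2 were lower in overexpression 1 and 2 than in deletion 2.

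**Figure D5:**
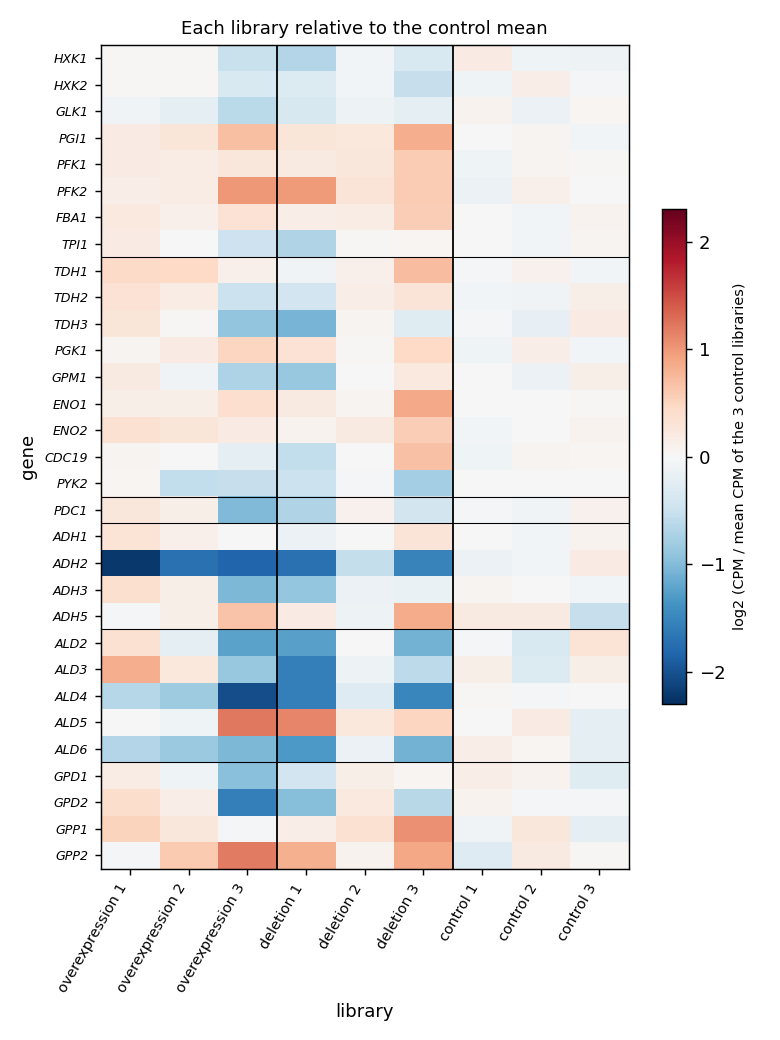
Log2 ratio of each library (columns) to the mean CPM of the 3 controls for 31 genes (rows, by role; PDC5 and PDC6 are left out for low counts), blue for lower and red for higher. Overexpression 3, deletion 1 and deletion 3 share blue cells for PDC1 and TDH3 and red cells for PFK2 and ALD5. ADH2, ALD4 and ALD6 are blue in all 6 libraries of both strains, ALD4 and ALD6 most in those 3.

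In overexpression against the libraries labelled deletion, the smallest p belonged to ALD3, with a log2 fold change of 1.04 (SE 0.46, adjusted p = 0.683, edgeR), on the low levels given above and with overlapping libraries. ALD2 followed at 0.50 (SE 0.41, adjusted p = 0.887) and GPP1 at -0.31 (SE 0.27, adjusted p = 0.894). ADH3 stood at 0.31, HXK1 at 0.22, HXK2 at 0.20, ENO1 at -0.20, PFK1 at -0.15, TDH3 at 0.24 and PDC1 at 0.20, with SEs of 0.20 to 0.33 and adjusted p of 0.901 to 0.95. ALD4 and ALD6 differed by -0.05 and -0.09, with 95% intervals of -0.88 to 0.77 and -0.72 to 0.55.

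Genes that regulate or adjoin these pathways were read from lists in the same fit. Of 19 regulators of glycolysis and of glucose repression 18 were tested and 0 passed in any comparison by edgeR or by DESeq2. By either tool, 4 had an unadjusted p under 0.05 in overexpression against control, beside 7.11% of all genes by edgeR. In the libraries labelled deletion against control 6 did, beside 11.9% of all genes by edgeR. Among these, ADR1 had 61.7, 85.1 and 37.2 CPM in overexpression and 40.8, 44.0 and 42.6 CPM in the libraries labelled deletion, against 127, 103 and 92.3 CPM in control, with log2 fold changes of -0.80 (SE 0.28, adjusted p = 0.463) and -1.36 (SE 0.28, adjusted p = 0.288). CAT8 had log2 fold changes of -0.87 (adjusted p = 0.424) and -1.04 (adjusted p = 0.40). HAP4 had -0.55 (adjusted p = 0.656) and -0.72 (adjusted p = 0.40). These 3 activators lay below every control in all 6 libraries, and so did MTH1, with log2 fold changes of -0.56 and -0.51. In each comparison with control, 5 of the 18 regulators lay below every control, beside 8.47% and 10% of all genes. The share of all genes below every control in both strains was not computed. STD1, which takes part in glucose sensing, lay above every control in all 6, with 0.96 (adjusted p = 0.668) and 1.28 (adjusted p = 0.40). Its controls were low, at 18.3, 14.1 and 4.40 CPM. MSN4, a stress activator, had 0.90 and THI3, a regulator of thiamine genes, had -1.51 in the libraries labelled deletion (adjusted p = 0.40 for each). THI3 was low, at 6.50, 16.7 and 5.33 CPM there, against 29.6, 24.5 and 26.4 CPM in control. In overexpression it had 26.7, 26.8 and 8.75 CPM, so its lowest values were those of the libraries that lay apart. Apart from MTH1, these are all the regulators with an unadjusted p under 0.05 against control, and all were named after their values were seen.

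Among markers of glucose derepression, ICL1 fell in overexpression by edgeR, and ICL1 and MLS1 by DESeq2. All 6 tested (ICL1, MLS1, PCK1, FBP1, JEN1 and ADY2, genes of the glyoxylate cycle, gluconeogenesis and uptake of lactate and acetate) had negative log2 fold changes, with a median of -1.40 beside -0.00193 for all genes. By edgeR 1 of 6 passed, as lower, beside 0.216% of all genes, and by DESeq2 2 of 6. ICL1, isocitrate lyase, fell to 23.4, 61.5 and 63.5 CPM in overexpression, against 231, 334 and 281 CPM in control, a log2 fold change of -2.52 (SE 0.34, adjusted p = 0.00293, edgeR). Its adjusted p stayed between 3.66e-09 and 0.0277 over 18 alternatives. Without the 3 libraries that lay apart all 6 passed as lower, beside 1.44% of all genes. With a term for them 5 of 6 did, beside 0.806%. In the libraries labelled deletion all 6 were negative too, from -1.79 to -0.0422 with a median of -0.76. Of the 6, 3 lay below every control, beside 10% of all genes, and the others, JEN1 and ADY2 among them, overlapped. By edgeR or by DESeq2 0 of 6 passed, beside 0.0196% of all genes as lower by edgeR. At an unadjusted p under 0.05 there were 3 by either tool, beside 11.9% of all genes by edgeR. Without the 3 libraries, which leaves deletion 2, ICL1 passed there as lower.

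In the pentose phosphate pathway, which branches from glycolysis at glucose 6-phosphate, 1 of 9 tested genes passed. It was higher in overexpression than in control, beside 0.629% of all genes. NQM1, a paralogue of the transaldolase gene TAL1, rose to 65.1, 82.0 and 109 CPM in overexpression, against 36.6, 31.3 and 35.2 CPM in control, a log2 fold change of 1.32 (SE 0.26, adjusted p = 0.0318, edgeR). This call was lost in 8 of 18 alternatives, with adjusted p up to 0.380 when control 2 was left out. Of the other lists, 0 genes passed in any comparison by edgeR or by DESeq2 among 8 genes of fructose 2,6-bisphosphate and gluconeogenesis, 7 of further hexose kinase, mutase and alcohol dehydrogenase genes, 9 of glycerol use and transport, 17 of trehalose and glycogen, 11 of acetyl-CoA supply and 6 markers of general stress. At an unadjusted p under 0.05 in overexpression against control these lists held 1, 0, 1, 2, 2 and 0 genes by edgeR. Without the 3 libraries that lay apart, 2, 0, 1, 2, 2 and 0 genes of these lists passed in overexpression against control. These were PCK1 and FBP1, GUT2, NTH2 and GLG1, and ACH1 and MPC3, all lower, beside 1.44% of all genes as lower. With a term for those 3, PCK1, GUT2 and GLG1 passed there as lower, beside 0.806%. PYC1 then passed as higher in overexpression against the libraries labelled deletion, beside 1.75%. PCK1 and FBP1 are also derepression markers above.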

How the data were processed

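The series holds 9 RNA-seq libraries, 3 of each strain, grouped by their titles. The deposited values are whole-number counts per gene identifier. They were made with cutadapt, UMI-tools and build R64, per the submitters' processing notes. The sources used here do not name the aligner, the counting window or the use of strand. Each table had 6631 rows, of which 2 repeat a gene and were dropped with 0.0372% to 0.0569% of counts. Of 6629 identifiers, 5956 matched RefSeq, the 33 genes among them.

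Genes were filtered with edgeR's filterByExpr (minimum count 10, minimum total 15), scaled by TMM and tested with edgeR 4.0.16's quasi-likelihood test in R 4.3.3 over all 9 libraries, with Benjamini-Hochberg adjustment over 5090 genes and a threshold of 0.05. SEs were taken from the fold change and the root of its F statistic. Library totals of 223189 to 1634021 make 1 count worth 0.612 to 4.48 CPM, and repeats differed by 1.58 to 19.1 times the counting variance. Counting intervals are exact binomial, for 95%, and cover counting error only. Alternatives were DESeq2 1.42.0, other scalings and filters, a replicate block and libraries left out. The script was tested on simulated data.

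The genes, gene lists and the motif searches were chosen with earlier results of these data known. Statistics are given for genes past the threshold and the 10 smallest p-values per comparison, and at most 4 genes past the threshold per list; others named were chosen after their values were seen.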

Additional observations from a re-analysis of the deposited data

How the results depend on the processing

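Leaving out the 3 libraries that lay apart, chosen after seeing the data like the fit with a term for them, took the count of the 30 genes called in overexpression against control from 0 to 2, and the term took it to 1; leaving out 1 library at a time gave 0 to 0 in every comparison. All genes called there numbered 43, against 166 without the 3 libraries, 113 with the term and 27 with the replicate block; in overexpression against the libraries labelled deletion they numbered 37, against 76, 106, 59 by DESeq2 and 15 with only the 6 libraries compared.

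With the replicate block the genes called stayed at 0 in each comparison. Deviations from the group mean in same-numbered libraries correlated at -0.0776, 0.00245 and -0.141 between overexpression and control. They correlated at 0.129, -0.105 and -0.059 between the libraries labelled deletion and control. Between overexpression and the libraries labelled deletion the values were -0.46, 0.511 and 0.312. The 3 libraries that lay apart enter these deviations, so the values cannot decide whether a repeat number marks a shared culture or day.

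Without the 3 libraries the log2 fold change was -0.0917 for ALD5 in overexpression against control, and 0.0359 for GPP1 and 0.0607 for ENO1 in overexpression against the libraries labelled deletion. With the term it was -0.00166 for ALD5 and -0.00562 for GPP2 in the libraries labelled deletion against control, and -0.00662 for ADH3, -0.0954 for TDH3 and -0.18 for PDC1 in overexpression against the libraries labelled deletion. Leaving out 1 library gave -0.0675 to 0.70 for ALD5 in overexpression against control and, in overexpression against the libraries labelled deletion, -0.49 to 0.00658 for GPP1, -0.34 to 0.0867 for ENO1, -0.0187 to 0.52 for TDH3 and -0.0237 to 0.51 for PDC1. The cause was not tested. Of 590 single-gene values, 565 kept their direction and side of the threshold. The filter and library totals limit ADH2, PDC5 and PDC6 most.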
